A study of Mus musculus with 48 samples.

Results

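The 5 genes followed here lie at the output side of the circadian clock and were measured in kidneys of mice with and without lupus nephritis. They are the PAR bZIP activators Dbp, Tef and Hlf, the repressor Nfil3, and the clock output gene Usp2. They were picked out by gene symbol and made up 5 of the 11559 genes that could be tested. The array carried 8 probes for them, 1 each for Dbp, Hlf and Nfil3, 2 for Tef and 3 for Usp2, and all 8 passed the detection filter (detection p under 0.05 on at least 3 of 48 arrays). For Hlf the filter was passed narrowly, on 8 arrays.

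Whole kidneys, perfused with PBS, of the NZB/W F1 hybrid, in which lupus nephritis arises spontaneously with age, were profiled on 48 single-colour Illumina MouseRef-8 v2.0 arrays. The 26 young mice were 12 weeks old. The 22 nephritic mice were, per the study's methods, 30 to 45 weeks old and were taken 2 to 3 weeks after proteinuria reached 300 mg/dl, with blood urea nitrogen under 25 mg/dl. All mice lived under 12 h of light and 12 h of darkness, and kidneys were taken at 6 Zeitgeber times (ZT) 4 h apart, with lights on at ZT0 and off at ZT12. From ZT0 to ZT20 there were 4, 4, 4, 6, 4 and 4 young arrays and 3, 3, 5, 5, 3 and 3 nephritic arrays. No allele or agent separated the groups. Because the nephritic mice were also older, age and disease cannot be told apart here, and in whole kidney RNA fewer cells of a type and less RNA per cell cannot be told apart either. The labels do not say whether any mice shared a litter, so p-values measure the spread between these kidneys.

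Dbp, Tef and Hlf encode transcription factors of the proline and acidic amino acid-rich (PAR) basic leucine zipper family, which bind DNA elements called D-boxes and activate transcription. Nfil3, also called E4BP4, encodes a related basic leucine zipper protein that binds the same elements and represses. In mouse liver the activators and Nfil3 accumulate at opposite times of day, so that D-box genes are driven up and then held down in turn. The core clock feeds both sides, through E-boxes bound by CLOCK and BMAL1 and through elements bound by the REV-ERB repressors and ROR activators. Usp2 encodes a deubiquitinase whose mRNA cycles in many mouse tissues and whose targets include clock proteins. In kidney, PAR bZIP factors are known for their influence on drug metabolism and on salt and water transport.

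The promoter windows of the 5 genes were searched for short spellings of the elements through which clock factors act. All 5 genes matched the RefSeq promoter table (build GRCm38.p6), with 6 windows of 300 bases, each from 250 bases before to 50 after an annotated start. Both strands were searched for the E-box CACGTG, the D-box spellings TTATGTAA and TTACGTAA, and the REV-ERB/ROR element TAGGTCA. No matches overlapped. Among 32851 windows of that length, 7.15% held the E-box, 0.938% and 0.119% the D-box spellings, and 2.61% the REV-ERB/ROR element. Tef had windows at 2 annotated starts, on the plus strand, and each held 1 E-box, beginning 127 bases before the start at chr15:81802423-81802722 and 138 bases before the start at chr15:81811164-81811463. The Nfil3 window, on the minus strand at chr13:52980990-52981289, held 1 REV-ERB/ROR element on the opposite strand of the gene, beginning 12 bases before the start. The windows of Dbp (chr7:45704997-45705296, plus strand), Hlf (chr11:90390868-90391167, minus strand) and Usp2 (chr9:44084670-44084969, plus strand) held no match. Only these exact spellings in these windows were searched, so a window without a match does not show that the gene lacks such elements. The Nfil3 and Usp2 windows lay within the annotated bounds of their genes (chr13:52967209-52982878 and chr9:44067021-44095627), so the outermost starts of these genes were not searched. The windows with a match follow, and then that of Dbp as a window without a match. They are read 5′ to 3′ on the strand of the gene, with matches in capitals.
Tef, first start: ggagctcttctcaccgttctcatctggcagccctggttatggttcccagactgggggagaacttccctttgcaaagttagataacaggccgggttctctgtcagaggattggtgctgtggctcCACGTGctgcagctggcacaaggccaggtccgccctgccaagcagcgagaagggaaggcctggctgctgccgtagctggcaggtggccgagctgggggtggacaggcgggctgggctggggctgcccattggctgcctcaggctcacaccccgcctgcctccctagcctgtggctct
Tef, second start: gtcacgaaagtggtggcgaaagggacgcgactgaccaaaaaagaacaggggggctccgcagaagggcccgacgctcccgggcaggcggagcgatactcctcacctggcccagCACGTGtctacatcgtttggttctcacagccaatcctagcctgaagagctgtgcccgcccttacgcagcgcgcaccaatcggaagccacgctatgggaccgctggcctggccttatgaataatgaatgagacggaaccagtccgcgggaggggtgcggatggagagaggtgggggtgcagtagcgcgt
Nfil3: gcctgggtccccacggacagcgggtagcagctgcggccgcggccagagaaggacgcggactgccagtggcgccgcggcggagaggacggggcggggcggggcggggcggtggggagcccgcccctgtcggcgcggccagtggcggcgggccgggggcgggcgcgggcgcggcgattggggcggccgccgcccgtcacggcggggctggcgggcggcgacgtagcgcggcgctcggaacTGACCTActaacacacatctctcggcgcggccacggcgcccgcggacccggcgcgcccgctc
Dbp: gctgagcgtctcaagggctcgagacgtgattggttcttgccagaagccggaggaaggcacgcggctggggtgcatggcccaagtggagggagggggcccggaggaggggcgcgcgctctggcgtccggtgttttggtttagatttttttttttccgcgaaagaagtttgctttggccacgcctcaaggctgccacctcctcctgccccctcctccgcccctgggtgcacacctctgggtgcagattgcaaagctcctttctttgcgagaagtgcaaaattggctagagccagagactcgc

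Some features of the arrays touch the results. The array set held 8 nephritic arrays that stood apart by Pabpc1, the gene of a protein that binds poly(A) tails. They read 5.94 to 6.69 on the log2 scale, against 8.20 to 9.51 on the other 14 nephritic arrays and 8.52 to 9.37 on the young arrays. They comprised all 3 arrays at ZT0, all 3 at ZT4, and replicate 3 at ZT16 and at ZT20, so nephritic values at ZT0 and ZT4 rested wholly on them. The nephritic arrays at ZT12 carried title codes, HIL and RX, found at no other time, and 3 of the 6 young arrays at ZT12 formed a set with its own code. Each young time had a code found at no other time, and no code was shared between the diagnoses. A random block for title code therefore cannot separate code from time of day in young kidneys, nor code from diagnosis. Depth was even, with median signals of 98.1 to 117.9 and 12706 to 14077 probes detected per array.

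Dbp had the widest daily range of the 5 genes in young kidneys. On the log2 scale of background-corrected, quantile-normalized signal, the 4 young arrays read 7.98, 7.14, 7.31 and 7.48 at ZT0. They read 10.99, 11.14, 11.26 and 11.09 at ZT4, and 12.26, 12.07, 12.58 and 12.30 at ZT8. Dbp therefore rose steeply through the morning, with no overlap between ZT0, ZT4 and ZT8. At ZT12 the 6 young arrays ran from 11.39 through a median of 11.48 to 12.06. At ZT16 they read 8.97, 9.26, 9.02 and 9.17, and at ZT20 7.94, 7.96, 8.0 and 7.71. The peak at ZT8 (12.30 ± 0.21, SD, n = 4) and the trough at ZT0 (7.48 ± 0.36, SD, n = 4) lay 4.82 log2 units, or 28.3-fold, apart. The levels at ZT20 and ZT0 were the only neighbours in the order of the 6 times that overlapped.

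In nephritic kidneys Dbp rose in the morning, as in young kidneys, but read lower at ZT12 and higher at ZT16 and ZT20. The ZT12 arrays carried title codes found at no other time. The nephritic arrays read 8.16, 7.72 and 7.15 at ZT0, and 10.59, 12.18 and 11.67 at ZT4. At ZT8 they read 12.0, 12.23, 12.31, 10.54 and 11.98, replicate 4 lying far below the other 4. At ZT12 they read 9.78, 10.05, 8.83, 9.80 and 10.59, and every one lay below every young array of that time. At ZT16 they read 9.45, 9.74 and 10.33, and at ZT20 8.37, 8.34 and 8.38, every one above every young array of those times. Neither difference passed (limma adjusted p = 0.0912 and 0.393). How large a share of all genes had no overlap between the diagnoses at a time was not counted, here or below. The nephritic range from ZT0 to ZT8 was 4.13 log2 units, or 17.6-fold.

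**Figure D1:**
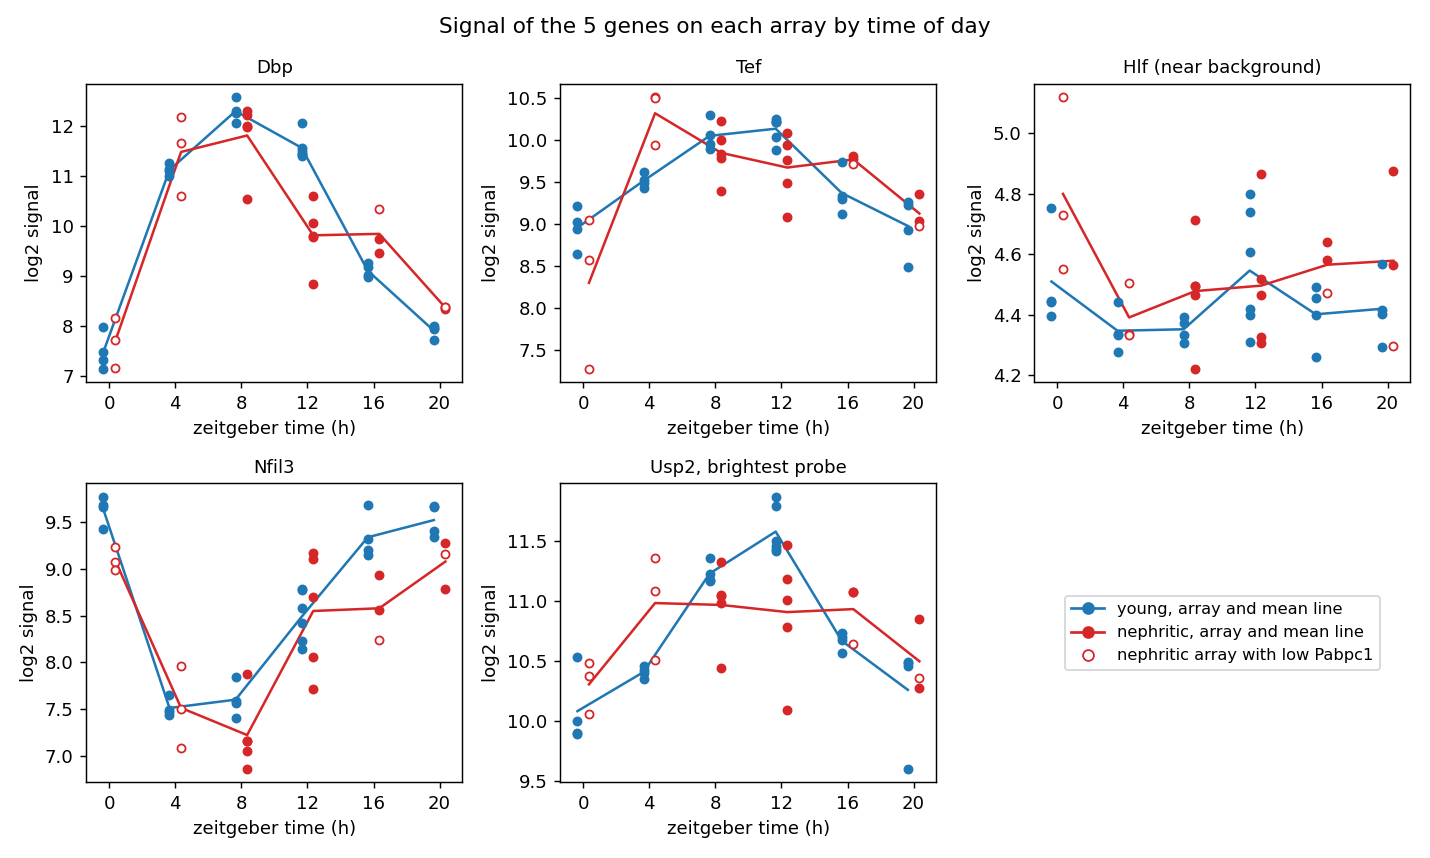
Log2 signal of each gene (vertical axis) on each array by Zeitgeber time (horizontal axis, hours), for young (blue) and nephritic (red) kidneys, with lines through the group means and hollow points for the 8 nephritic arrays with low Pabpc1. At ZT12 the 5 nephritic Dbp values run from 8.83 to 10.59, all under the young values, which begin at 11.39.

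Tef followed a flatter course. Young arrays read 9.21, 9.02, 8.94 and 8.64 at ZT0, and ran at ZT12 from 9.88 through a median of 10.21 to 10.25. Their range was 1.18 log2 units, or 2.26-fold, with means of 10.05 at ZT8 and 10.13 at ZT12 that overlapped. Both stood clear of the 9.51 ± 0.08 (SD, n = 4) at ZT4. In nephritic kidneys the highest Tef mean came at ZT4, where the 3 arrays read 9.94, 10.51 and 10.50, against 9.52, 9.61, 9.48 and 9.43 in young kidneys, with no overlap. At ZT0 the nephritic arrays read 9.05, 8.58 and 7.28, so that replicate 3 alone lay far below the rest. The nephritic range was 2.01 log2 units, or 4.04-fold, and both ends of it came from the 8 arrays with low Pabpc1.

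A second Tef probe was near background, detected on 34 of the 48 arrays, 23 of them young. It ran from 4.27 to 5.33 over all arrays. Hlf was closer still to background, with readings of 4.22 to 5.12 and detection on 3 of 26 young and 5 of 22 nephritic arrays. It was not detected on any array of young ZT4, ZT8, ZT16 and ZT20 and of nephritic ZT4 and ZT16, so its times of day have no order here and no fold is given.

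Nfil3 ran opposite to Dbp. Young arrays read 9.77, 9.42, 9.68 and 9.66 at ZT0, the highest mean, and 7.47, 7.50, 7.65 and 7.44 at ZT4, the lowest. They read 7.57, 7.85, 7.59 and 7.41 at ZT8. The signal thus dropped within the first 4 h of light and stayed low through ZT8. It came back through ZT12 (8.14 to 8.79, median 8.50) to 9.15, 9.31, 9.20 and 9.68 at ZT16 and 9.66, 9.34, 9.67 and 9.41 at ZT20. The young range was 2.12 log2 units, or 4.34-fold, and ZT16, ZT20 and ZT0 overlapped with their neighbours in order, as did ZT4 and ZT8.

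In nephritic kidneys Nfil3 was likewise highest at ZT0 and low at ZT4 and ZT8. The arrays read 9.24, 9.07 and 8.98 at ZT0, 8.93, 8.56 and 8.24 at ZT16, and 9.28, 8.79 and 9.16 at ZT20. At these 3 times every nephritic array lay below every young array, although the difference passed at ZT16 only. The limma adjusted p was 0.0694 at ZT0, 0.0216 at ZT16 and 0.259 at ZT20. The lowest mean came at ZT8, where the arrays read 7.06, 7.17, 6.87, 7.88 and 7.16, the high value being replicate 4, which was also the low Dbp array. At ZT12 the 2 arrays with code HIL read 8.05 and 7.72, while the 3 with code RX read 9.11, 9.17 and 8.69, so that the HIL pair lay below every young array and the RX arrays reached from within the young values upward. The nephritic range was 1.87 log2 units, or 3.65-fold.

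Usp2, by its brightest probe, was highest in young kidneys at lights off. Young arrays read 10.53, 9.90, 10.002 and 9.89 at ZT0 and 10.43, 10.40, 10.46 and 10.35 at ZT4. They rose to 11.35, 11.16, 11.22 and 11.17 at ZT8 and to between 11.41 and 11.87, with a median of 11.48, at ZT12. In descending order, ZT12, ZT8, ZT16 and ZT4 did not overlap with one another. The young range was 1.49 log2 units, or 2.82-fold. In nephritic kidneys the means from ZT4 to ZT16 all lay between 10.91 and 10.98 and their arrays overlapped. The nephritic range was 0.68 log2 units, or 1.60-fold. At ZT12 the nephritic arrays read 10.78, 10.09, 11.01, 11.18 and 11.46, 4 of the 5 below every young array.

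Over the 6 times, 4 of the 5 genes changed with time of day in young kidneys, where 18.3% of all tested genes did (limma moderated F-test, Benjamini-Hochberg adjusted over 11559 genes). Adjusted p was 3.30e-19 for Dbp, 3.11e-12 for Nfil3, 7.89e-08 for Usp2 and 6.36e-07 for Tef, and 0.346 for Hlf. The median range over all tested genes was 0.28 log2 units in young and 0.55 in nephritic kidneys. In nephritic kidneys 3 of the 5 passed, Dbp (adjusted p = 6.29e-05), Nfil3 (0.00153) and Tef (0.00545), beside 17.2% of all tested genes. Usp2 (adjusted p = 0.245) and Hlf (0.455) did not pass by limma, although Usp2 passed with array weights (0.00682). Leaving out the 8 arrays with low Pabpc1, and with them ZT0 and ZT4, left Dbp alone (adjusted p = 0.0397 by limma), with 0.0433% of genes passing. With a covariate for those arrays instead, Dbp (adjusted p = 3.89e-04) and Nfil3 (0.0154) passed by limma and Tef (0.0782) did not, beside 0.242% of genes. Only ZT16 and ZT20 held nephritic arrays of both kinds, so the covariate was estimated from those times. The part of the low-Pabpc1 arrays in the nephritic time courses was not tested beyond this.

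The course over the day differed between nephritic and young kidneys for 3 of the 5 genes, where 21.3% of all tested genes did (limma F-test of the time by disease interaction). Adjusted p was 1.40e-04 for Dbp, 0.00775 for Tef and 0.0107 for Usp2, against 0.220 for Nfil3, which passed with array weights (0.00363 by limma), and 0.619 for Hlf. Dbp also passed without the 8 arrays (adjusted p = 0.0130 by limma, 0.502% of genes passing), whereas Tef (0.208) and Usp2 (0.147) did not. With the covariate, Dbp (0.0114) and Tef (0.0473) passed in limma, beside 2.01% of genes, and Usp2 had an adjusted p of 0.0744. Without the second young set at ZT12 the Usp2 value was 0.0688 by limma. With title code as random block Tef (0.294) and Usp2 (0.280) no longer passed by limma.

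Among the 5 genes and 6 times the largest difference was that of Dbp at ZT12, the end of the light phase. Nephritic kidneys averaged 9.81 ± 0.64 (SD, n = 5) and young kidneys 11.57 ± 0.25 (SD, n = 6). The difference of -1.75 ± 0.26 (SE) made Dbp 3.37-fold lower in nephritic kidneys (limma, adjusted p = 3.40e-06). At that time 2 of the 5 genes differed, Dbp and Usp2, beside 28.3% of all tested genes. Against the 3 young arrays of the first set alone the Dbp difference was -1.64 ± 0.31 (SE, adjusted p = 4.52e-04 by limma), and with title code as random block it was -1.76 ± 0.32 (SE, adjusted p = 3.20e-04 by limma). The diagnoses shared no code at ZT12, so the block cannot separate code from diagnosis in this difference. The arrays with code HIL averaged 9.92 and those with code RX 9.74, both under the lowest young array.

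Usp2 was 1.59-fold lower at ZT12 (-0.67 ± 0.18, SE, limma adjusted p = 0.00512). This call was lost without nephritic replicate 2 (difference -0.47, limma adjusted p = 0.0584), without the second young set (-0.56, 0.0609) and with title code as random block (-0.62, 0.0679). The 2 nephritic arrays with code HIL averaged 10.44 and the 3 with code RX 11.22. Tef differed by -0.46 ± 0.19 (SE) at ZT12 and did not pass (limma adjusted p = 0.0708), although it passed without the 8 low-Pabpc1 arrays, none of which is at ZT12 (adjusted p = 0.0290 by limma). Nfil3 differed by 0.06 ± 0.19 (SE, limma adjusted p = 0.849).

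All nephritic arrays at ZT4 and at ZT0 had low Pabpc1. At ZT4, 2 of the 5 genes were higher in nephritic kidneys, beside 48.5% of all tested genes that differed. Tef was 1.75-fold higher (0.80 ± 0.25, SE, limma adjusted p = 0.00636), a call lost with title code as random block (0.0617). With the covariate the Tef difference was 0.95 ± 0.37 (SE) and did not pass (limma adjusted p = 0.0898). That covariate was estimated from ZT16 and ZT20, since ZT4 had no other nephritic arrays. Usp2 was 1.49-fold higher (0.57 ± 0.23, SE, limma adjusted p = 0.0342), a call lost without any one of 5 arrays of that time, with the widest move without nephritic replicate 2 (0.38, adjusted p = 0.229 by limma). It was also lost with the block (0.150 by limma) and with the covariate (0.89 ± 0.34, SE, limma adjusted p = 0.0804). At ZT0 Tef alone of the 5 differed, 1.57-fold lower (-0.65 ± 0.25, SE, limma adjusted p = 0.0287), beside 42.5% of genes. Without nephritic replicate 3 the Tef difference at ZT0 was -0.14 (limma adjusted p = 0.653), and without young replicate 1 or 2 the call was lost as well (0.0813 and 0.0556 by limma). It did not hold under median scaling (limma adjusted p = 0.210), array weights (0.3503), the block (0.209) or the covariate (0.469).

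At ZT16 Nfil3 was 1.69-fold lower in nephritic kidneys (-0.76 ± 0.24, SE, limma adjusted p = 0.0216), the one call of the 5 beside 22.6% of all genes. Without nephritic replicate 3, a low-Pabpc1 array, the difference was -0.59 (limma adjusted p = 0.209). The call was also lost without nephritic replicate 2 (0.0510 by limma) or young replicate 4 (0.0750 by limma), and with array weights (0.322), the block (0.113) or the covariate (0.0711). Dbp at ZT16 differed by 0.74 ± 0.32 (SE) with an adjusted p of 0.0912 by limma, although its groups did not overlap. None of the 5 genes passed at ZT8, beside 21.5% of genes, or at ZT20, beside 6.59% (limma). At an unadjusted p under 0.05 there was likewise none at either time. In all, 6 of the 30 gene and time pairs passed, where the share of all genes ran from 6.59% at ZT20 to 48.5% at ZT4.

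**Figure D2:**
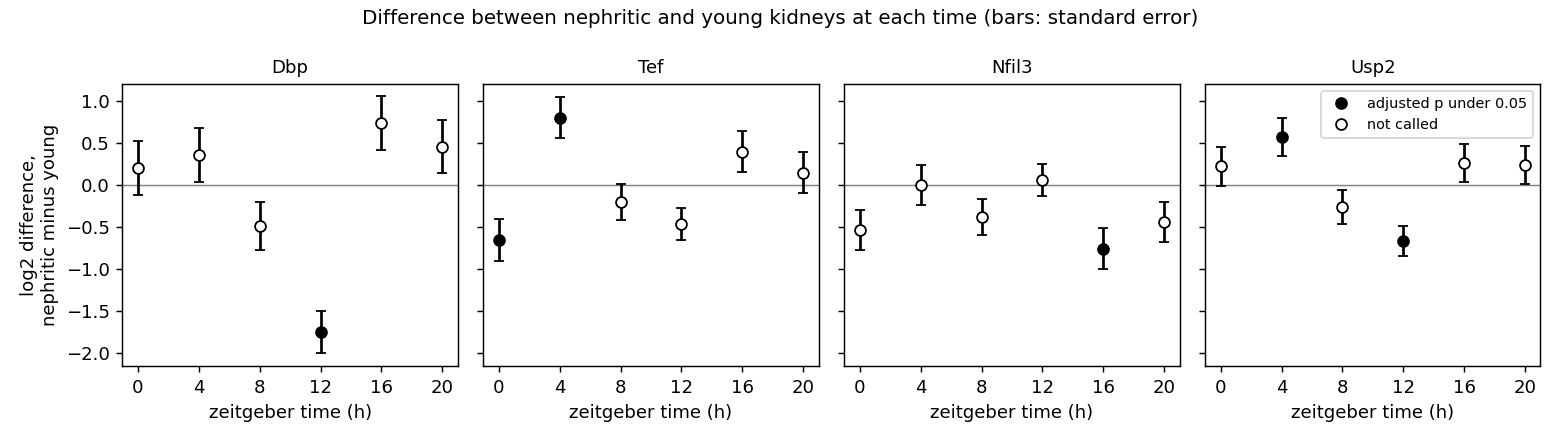
Difference between nephritic and young kidneys in log2 signal (vertical axis) at each Zeitgeber time (horizontal axis, hours) for Dbp, Tef, Nfil3 and Usp2, with bars for the standard error and filled points where the limma adjusted p was under 0.05. Dbp at ZT12 lies at -1.75, and the 4 Nfil3 points at ZT0, ZT8, ZT16 and ZT20 lie between -0.76 and -0.38.

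Averaged over the 6 times, Nfil3 fell in nephritic kidneys. It was 1.27-fold lower (-0.34 ± 0.09, SE, limma adjusted p = 0.00152), and 17 of 22 nephritic arrays lay below the young mean of their own time. Leaving out any single array kept the difference between -0.38 and -0.31. Without the 8 low-Pabpc1 arrays, and so over ZT8 to ZT20 only, it was -0.35 ± 0.13 (SE, limma adjusted p = 0.0298, with 46.4% of all genes passing). With the covariate, over all 6 times, it was -0.26 ± 0.15 (SE, limma adjusted p = 0.199). Hlf passed as well, by 0.12 ± 0.05 (SE, limma adjusted p = 0.0375), on a probe mostly at background. That call was lost without any one of 9 arrays. These 2 of 5 genes stand beside 65.1% of all tested genes that passed, 4219 higher and 3302 lower, around a median difference of 0.03. Dbp (-0.08 ± 0.12), Tef (0.01 ± 0.10) and Usp2 (0.06 ± 0.09, all SE) had limma adjusted p-values of 0.588, 0.963 and 0.558.

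Markers of other cell types moved with the diagnosis over which these levels were compared. As the mean of a list's genes per array, each centred on its mean over 48 arrays, the myeloid list ran from -1.0 to -0.51 in young and from -0.24 to 1.93 in nephritic kidneys, with 4 of 4 tested genes higher. The T and NK cell list ran from -0.82 to -0.30 against -0.52 to 1.91 (3 of 4 higher), and the B and plasma cell list from -1.14 to -0.69 against -0.26 to 2.95 (4 of 4 higher). Of the kidney lists, 2 of 4 proximal tubule genes, 2 of 4 thick limb and distal tubule genes and 1 of 2 podocyte genes were lower, while 1 thick limb and distal tubule gene and 3 of 3 collecting duct genes were higher. The tested genes of the tubule and podocyte lists were detected on at least 47 of 48 arrays. The least detected gene was found on 4 arrays in the myeloid and B and plasma cell lists, and on 9 in the T and NK cell list. Genes so seldom detected could pass the filter on nephritic arrays alone, and 3 of 7 myeloid genes were not tested. These counts stand beside 65.1% of all tested genes that passed for the level. Of the endothelial list 0 of 4 genes passed by limma. The adipose list (1 of 6 lower) ran from -1.13 to 1.85 in young and from -1.15 to 0.86 in nephritic kidneys. The adrenal list (0 of 2 passing by limma) reached 2.32 on a young array at ZT12, against -0.24 to -0.16 on the nephritic arrays of that time. The part of these lists in the values of the 5 genes was not tested.

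Fitted with a cosine of 24 h, Dbp, Tef and the brightest Usp2 probe peaked during the later light hours and Nfil3 during the later dark hours. In young kidneys Dbp peaked at 8.89 ± 0.19 h (SE, n = 26), Tef at 9.86 ± 0.35 h, Usp2 at 10.95 ± 0.38 h and Nfil3 at 19.26 ± 0.35 h. In nephritic kidneys (n = 22) these times were 7.97 ± 0.69 h, 9.40 ± 1.37 h, 9.98 ± 1.60 h and 19.03 ± 0.70 h. All nephritic arrays at ZT0 and ZT4 had low Pabpc1, so the nephritic peak times rest partly on them. The shift between diagnoses was -0.92 ± 0.71 h for Dbp, -0.45 ± 1.42 h for Tef, -0.97 ± 1.64 h for Usp2 and -0.24 ± 0.78 h for Nfil3 (SE). The other Usp2 probes differed from the brightest. The second shifted by -5.27 ± 1.95 h, to a nephritic peak at 5.35 ± 1.85 h, and the third by 2.64 ± 4.42 h (SE).

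By its brightest probe, Usp2 passed the test of a rhythm change between the diagnoses, and the other 4 genes did not. Among all probes, the second Usp2 probe passed as well (limma adjusted p = 0.00895) and the third did not (0.0932), beside 2461 of 15981 probes. The Usp2 cosine had an amplitude of 0.75 ± 0.07 (SE) in young and 0.29 ± 0.11 in nephritic kidneys, or 37.8% of the young value. The limma F-test of a change in cosine or sine gave Usp2 an adjusted p of 0.0164, 1 of the 5 genes beside 16.2% of all tested genes. Dbp fell short of the threshold, with amplitudes of 2.54 ± 0.13 and 1.75 ± 0.30 (68.8%, limma adjusted p = 0.0541), and leaving out any one of 9 arrays brought it under. Nfil3 had 1.14 ± 0.11 and 0.92 ± 0.17 (80.8%, adjusted p = 0.658 by limma). Tef had 0.66 ± 0.06 and 0.54 ± 0.18 (82.5%, adjusted p = 0.842 by limma). Without the 8 low-Pabpc1 arrays, and so with ZT8 to ZT20 only, none of the 5 passed by limma, beside 0.0692% of genes. Usp2 then had an adjusted p of 0.277 and Dbp of 0.0915 by limma. Without the second young set at ZT12 the Usp2 value was 0.0810 by limma, and with title code as random block it was 0.129. With the covariate it was 0.145 by limma, beside 82 of 11559 genes that passed.

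**Figure D3:**
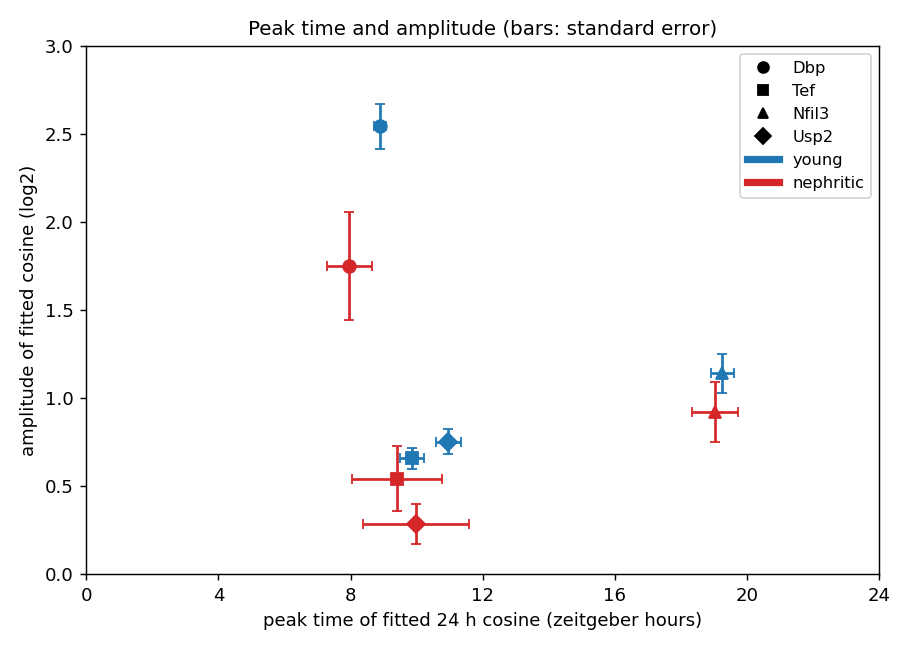
Amplitude of the fitted 24 h cosine in log2 units (vertical axis) against its peak time in Zeitgeber hours (horizontal axis) for Dbp, Tef, Nfil3 and Usp2 in young (blue) and nephritic (red) kidneys, with bars for the standard error. Nfil3 lies near 19 h in both diagnoses, and Usp2 drops from 0.75 to 0.29.

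The fitted peaks of Dbp and Nfil3 were 10.4 ± 0.26 h (SE) apart in young and 11.1 ± 0.49 h apart in nephritic kidneys. For Tef and Nfil3 the gap was 9.41 ± 0.48 h and 9.62 ± 1.35 h, and for Usp2 and Nfil3 8.31 ± 0.54 h and 9.04 ± 1.73 h. Usp2 peaked 2.06 ± 0.41 h after Dbp in young and 2.02 ± 1.44 h after it in nephritic kidneys, and Tef 0.97 ± 0.37 h and 1.44 ± 1.0 h after it. The Usp2 gaps are those of its brightest probe. The second probe peaked before Dbp in nephritic kidneys. These gaps are descriptions with no test, and the nephritic gaps rest partly on the low-Pabpc1 arrays of ZT0 and ZT4. Array by array, Pearson's r between Dbp and Nfil3 was -0.87 over the 26 young and -0.90 over the 22 nephritic arrays, which share the time of day and their normalization. Young arrays fell into a high-Dbp set from ZT4 to ZT12 and a low-Dbp set from ZT16 to ZT0, with nothing between 9.26 and 10.99. Nephritic arrays filled that interval, and 4 of the 5 arrays of ZT12 lay in it.

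**Figure D4:**
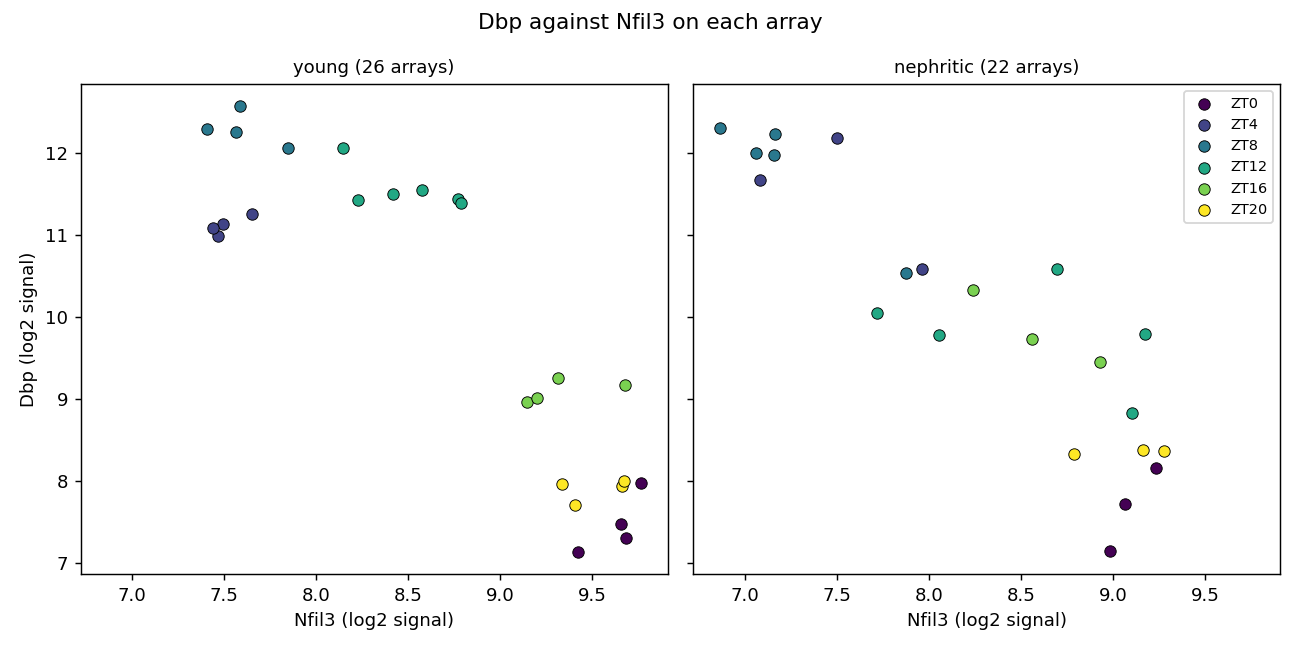
Log2 signal of Dbp (vertical axis) against that of Nfil3 (horizontal axis) on each of the 26 young (left) and 22 nephritic (right) arrays, coloured by Zeitgeber time. Young arrays leave a gap in Dbp between 9.26 and 10.99 that arrays of nephritic kidneys at ZT4, ZT8, ZT12 and ZT16 enter.

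The 3 Usp2 probes, all annotated to the same transcript of the gene on chromosome 9, shared their young course but disagreed on the diagnosis. All 3 changed over the day in young kidneys, with limma adjusted p-values of 7.46e-08, 2.08e-04 and 1.0e-04 among 15981 probes, of which 17.2% passed. In nephritic kidneys the second probe passed (adjusted p = 0.0155 by limma) and the first (0.241) and the third (0.62) did not, beside 17.0% of probes. For the interaction, the first (0.0109) and second (4.73e-04) passed by limma and the third (0.208) did not, beside 20.3% of probes.

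The third probe passed as lower in nephritic kidneys at 4 of the 6 times. Its young arrays read 5.89, 6.34, 6.24 and 6.53 at ZT8 and its nephritic arrays 5.17, 4.69, 5.15, 4.61 and 5.12, with no overlap. At ZT16 they read 6.0, 6.16, 5.76 and 6.19 against 5.24, 4.60 and 4.74, again with no overlap. At ZT4 they read 4.95, 5.18, 5.98 and 5.47 against 4.73, 4.80 and 4.33. It passed at ZT4 (-0.78, limma adjusted p = 0.0376, beside 47.9% of probes), ZT8 (-1.31, 0.00111, beside 21.3%), ZT12 (-1.15, 8.05e-04, beside 26.5%) and ZT16 (-1.17, 0.00660, beside 24.2%). The ZT4 call was lost under median scaling (limma adjusted p = 0.0804), the processed table (0.0675), an offset of 50 (0.0635) and the block (0.117). At ZT12 the HIL arrays averaged 4.47 and the RX arrays 5.92, and the highest RX array, at 6.40, lay within the young values of 6.12 to 6.68. Over the 6 times it was 1.81-fold lower (-0.86 ± 0.12, SE, limma adjusted p = 7.66e-08), on 20 of 22 nephritic arrays, beside 64.7% of probes that passed. The probe was detected on 26 of 26 young and 16 of 22 nephritic arrays. Because it was dim, its fold depended on the background step: it was 1.23-fold lower on median-scaled signals without background correction (limma adjusted p = 7.24e-07). Without the 8 low-Pabpc1 arrays, and so over ZT8 to ZT20 only, it was 1.99-fold lower (limma adjusted p = 1.35e-05). That fit drops ZT4 and ZT0, where the difference was -0.20.

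The second Usp2 probe went the other way. It was 1.24-fold higher over the 6 times (0.31 ± 0.10, SE, limma adjusted p = 0.00688), a call lost with title code as random block (0.0682). At ZT4 it read 6.56, 7.44 and 6.74 in nephritic against 5.08, 5.77, 5.64 and 5.66 in young kidneys, 2.60-fold higher with no overlap (limma adjusted p = 4.24e-05), or 1.51-fold on median-scaled signals. Without the 8 low-Pabpc1 arrays, and so over ZT8 to ZT20 only, its level difference was 0.05 ± 0.12 (SE, limma adjusted p = 0.749). The first probe had an adjusted p of 0.559 by limma. The 3 probes passed together in 1 direction at ZT12, where the second was 1.66-fold lower (limma adjusted p = 0.00876). Without the second young set the first (0.0620 by limma) and second (0.0893) no longer passed there, nor with the block (0.0654 and 0.0845), so that the third stood alone. Of the Tef pair, the dim probe was lower over the 6 times (-0.25 ± 0.07, SE, limma adjusted p = 0.00118), while the bright one did not pass. The dim probe was detected on 11 of 22 nephritic arrays and its difference was -0.07 on median-scaled signals, so no fold is given.

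**Figure D5:**
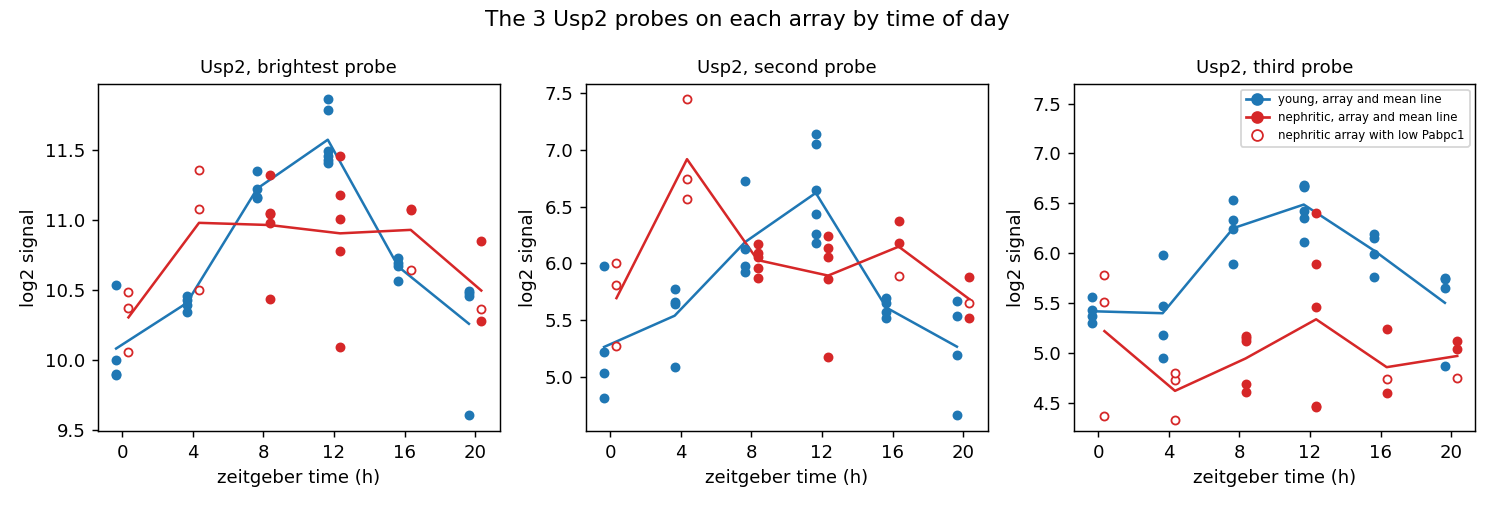
Log2 signal of the 3 Usp2 probes (vertical axes, which differ between panels) on each array by Zeitgeber time (horizontal axis, hours), young in blue and nephritic in red, with lines through the group means and hollow points for the 8 nephritic arrays with low Pabpc1. The third probe reads 4.33 to 4.80 at ZT4 in nephritic kidneys, where the second reads 6.56 to 7.44.

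Most clock genes that act upstream of the 5 changed over the day in young kidneys. The counts of this and the following lists stand beside the shares of all tested genes, 18.3% for the young and 17.2% for the nephritic time course, 21.3% for the interaction, 16.2% for the cosine change and 65.1% for the level. Without the 8 low-Pabpc1 arrays the interaction share was 0.502%. Of 12 tested, 11 passed in young and 8 in nephritic kidneys, the interaction passed for 6 and the change of cosine for 4, and over the 6 times 1 was higher and 5 lower in nephritic kidneys (limma). Without the 8 arrays the interaction passed for 1 of the 12, and 9 had an unadjusted p under 0.05 (limma). The median young range of the list was 1.84 log2 units and its median level difference -0.19. The 3 with the widest young range were Nr1d1, Arntl and Ciart. Nr1d1, the REV-ERBα repressor gene, ranged over 3.17 in young and 3.14 in nephritic kidneys, and its mean was highest at ZT8 and ZT4 respectively (limma adjusted p for the interaction 0.0715). Arntl, which encodes BMAL1, was 1.69-fold lower (limma adjusted p = 7.45e-10) and its range went from 2.69 to 1.56. Ciart, an inhibitor of CLOCK and BMAL1, was 1.51-fold lower (limma adjusted p = 2.07e-04).

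Of 13 tested genes described as controlled by PAR bZIP factors, 6 changed over the day in young and 1 in nephritic kidneys, the interaction passed for 2 and the cosine change for 1, and 2 were higher and 4 lower in nephritic kidneys (limma). The gene that passed in nephritic kidneys (limma adjusted p = 0.0414) was not among those 6 (0.480 in young kidneys). Its highest nephritic mean came at ZT0, where all nephritic arrays had low Pabpc1. Without the 8 arrays the interaction passed for 0 of these 13 genes by limma, 3 having an unadjusted p under 0.05. The list's median range was 0.62 log2 units in both diagnoses and its median level difference -0.03. Alas1, the first enzyme of heme synthesis, had a young range of 0.89 and was 1.15-fold lower in nephritic kidneys (limma adjusted p = 0.0258). Its highest young mean came at ZT12. Acot2, a mitochondrial acyl-CoA thioesterase, had a young range of 0.87 and was 1.36-fold lower (1.16e-04 by limma). Its highest young mean came at ZT20, when Dbp was low and Nfil3 high. Cyp2a5, a cytochrome P450 known as a PAR bZIP target in mouse liver, ranged over 0.85 in young and 0.62 in nephritic kidneys (limma adjusted p = 6.18e-06 and 0.706). Its highest mean came at ZT12 and ZT20 respectively, and its interaction did not pass (limma adjusted p = 0.0959).

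Of 8 tested partners and substrates of USP2, including the subunits of the epithelial sodium channel, 6 changed over the day in young and 2 in nephritic kidneys, the interaction and the cosine change passed for 1 each, and 7 were higher and 0 lower in nephritic kidneys (limma). Of the 2 that passed in nephritic kidneys, Per1 was among the 6 and the other was not (limma adjusted p = 0.0540 in young kidneys). Without the 8 arrays the interaction passed for 0 of these 8 genes by limma, 2 having an unadjusted p under 0.05. The list's median level difference was 0.35 and its median range 0.38 in young and 0.63 in nephritic kidneys. Per1, a core clock repressor, was 1.25-fold higher (limma adjusted p = 0.0206) and Ccnd1, cyclin D1, 1.44-fold higher (1.01e-08 by limma). Sgk1, the aldosterone-induced kinase, ranged over 1.64 in young kidneys and its level did not pass (-0.14, limma adjusted p = 0.376). Of 9 related bZIP genes, 2 changed over the day in young and 1 in nephritic kidneys, 6 were higher and 2 lower, and none passed for the interaction or the cosine change (limma). Cebpa, a liver and adipose differentiation factor, was 1.41-fold lower (limma adjusted p = 3.78e-06), and Cebpb, an inflammatory and metabolic regulator, 1.26-fold higher (0.00292 by limma).

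Genes most like each of the 5 were ranked by Pearson's r over the 48 arrays, each gene centred within its diagnosis, among genes detected on at least 24 arrays. These arrays share time of day, title codes and normalization, and the values are descriptions. Dbp was most like Ciart (0.85), Tef (0.82), Per3 (0.82), Mcm10 (0.81) and Narf (0.81), and least like Nfil3 (-0.88), Arntl (-0.87) and Ndrg1 (-0.86). Tef was most like Dbp (0.82), Sbk1 (0.80), Slit2 (0.80), Usp2 (0.79) and Per3 (0.79). Nfil3 was most like Ndrg1 (0.82), Leo1 (0.81), Acnat2 (0.80), Stx18 (0.78) and Nmrk1 (0.72). It was least like Nr1d1 (-0.89), Dbp (-0.88) and Rsad1 (-0.81). Usp2 was most like Tnfrsf21 (0.84), Per3 (0.84), Per2 (0.82), Per1 (0.81) and Ciart (0.80). For Hlf the highest was Cuta (0.46).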

How the data were processed

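RNA from whole kidneys was hybridised to 48 Illumina MouseRef-8 v2.0 arrays. The authors scanned the chips and extracted signals with GenomeStudio (version not stated in the sources used here). The deposited signal intensity of each probe was on a linear scale and not normalized between arrays, and it came with a deposited detection p-value against the negative control beads of its array. A second deposited intensity table held quantile-normalized values of the same arrays and served as an alternative. Groups came from the source names in the labels, and replicates were numbered in listed order.

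Signals were corrected by normexp with an offset of 16, quantile-normalized and taken to log2 (neqc in limma 3.58.1 under R 4.3.3). The platform annotation gave a single symbol to 23978 of 25697 probes, several to 0 and none to 1719. Named probes were retained if their detection p was under 0.05 on 3 or more arrays (15981), and the probe with the highest mean stood for its gene (11559 genes). Time courses were tested within each diagnosis (F-test, 5 df), and the level, each time, the interaction and the cosine change (period 24 h, 2 df) over all 48 arrays in 12 groups, adjusted by Benjamini-Hochberg over all genes, or over all probes where probes are compared. The threshold was 0.05. Fold changes come from log2 differences and are compressed at low signal. The number of arrays limits the precision. No pair of arrays held identical values.

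All probes of the 5 genes are named, with, of each list, up to 3 genes of widest young range among those that passed in young kidneys, and for each of the 5 genes those most like it, for Dbp and Nfil3 also those least like it. Members and lists were chosen with earlier results of these data known. Alternatives were median scaling without background correction, an offset of 50, the processed table, other filters, array weights, the title code as a random block, leaving out or adjusting for low-Pabpc1 arrays, leaving out the second young set at ZT12, leaving out each array, and for the time courses an unmoderated analysis of variance and a cosinor. The code was tested on simulated data.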

Additional observations from a re-analysis of the deposited data

Results flagged for a closer look

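Of 64 groups of 4 to 6 arrays checked over the 8 probes, 7 held an array whose gap to its nearest neighbour was large for the range of its group, and chance flags about 1 in 20. For Dbp, young ZT12 replicate 5 read 12.06 against 11.39 to 11.55 on the other arrays, and nephritic ZT8 replicate 4 read 10.54 against 11.98 to 12.31. For the dim Tef probe, young ZT12 replicate 2 read 5.24 against 5.05 to 5.11. For Hlf, young ZT0 replicate 2 read 4.75 against 4.40 to 4.45. For Usp2, the brightest probe read 10.53 on young ZT0 replicate 1 against 9.89 to 10.002. It read 9.60 on young ZT20 replicate 4 against 10.46 to 10.49, where the third probe read 4.87 against 5.65 to 5.75. The Usp2 values of that array were thus low on both probes. The course over the day differed between the diagnoses for Dbp (limma adjusted p = 1.40e-04), Tef (0.00775) and Usp2 (0.0107), and the fitted cosine of Usp2 differed (0.0164).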

How the results depend on the processing

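No paired analysis was possible because the labels carry no replicate numbers. Of the 5 genes, 4 passed in young kidneys under every alternative run. The title code block could not separate code from time there, since each young time had its own code. The count that passed for the nephritic time course was 3, with 4 under array weights (Usp2 gained), 2 with adjustment for the 8 low-Pabpc1 arrays or with the 24 h cosinor, and 1 without those arrays. For the level difference it was 2, and 1 under median scaling, the processed table, detection on at least 24 arrays, the title code block, and with the 8 arrays left out or adjusted for, Nfil3 remaining except with the adjustment, where Hlf did. For the interaction it was 3, with 4 under array weights (Nfil3 gained), 2 without the second young set or with adjustment, and 1 under the title code block or without the 8 arrays. For the cosine change it was 1. It was 2 under median scaling, detection on at least 24 arrays and array weights, and 0 without the second young set at ZT12, under the title code block, and with the 8 arrays left out or adjusted for. Of 30 gene and time pairs 6 passed, beside 6.59% to 48.5% of all genes at a single time. The count was 8 with array weights, 7 under median scaling and the processed table, and 5 without the second young set. It was 1 under the title code block (Dbp at ZT12) and 2 with adjustment for the 8 arrays (Dbp and Usp2 at ZT12). The shares of all genes at each time were not counted under these alternatives. The gap between Dbp and Nfil3 was 10.6 h in young and 11.6 h in nephritic kidneys under median scaling. The level difference of Tef turned to -0.00368 and that of Usp2 to -0.0545 without the 8 arrays, and that of Tef turned sign in 15 of 48 fits that left out 1 array (-0.0567 to 0.0909). Leaving out 1 array gave counts of 4 for young kidneys, 3 for nephritic kidneys, 1 to 2 for the level, 3 to 4 for the interaction, 1 to 2 for the cosine change and 5 to 7 of the 30 pairs, and gaps of 10.2 to 10.5 h and 10.8 to 11.3 h. Nfil3 passed for the interaction without nephritic ZT12 replicate 2 (limma adjusted p = 0.0454). Over all genes, the young time course had 2111 calls, and 1073 under the title code block. The nephritic one had 1984, and 5907 with array weights, 1163 under the block, 5 without the 8 arrays, 28 with adjustment for them and 807 without nephritic ZT4 replicate 2. The level difference had 7521, and 3881 with adjustment. The interaction had 2462, and 1604 without the second young set, 4567 with array weights, 72 under the block, 58 without the 8 arrays and 232 with adjustment. The cosine change had 1868, and 1158, 4012, 182, 8 and 82 in the same order. The cause of these changes was not tested, beyond the fewer arrays and times in the fits that leave arrays out. Low signal limits Hlf, the dim Tef probe and the third Usp2 probe, which were not detected on every array.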
